A study of Homo sapiens with 6 samples.

Results

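Genes of the endoplasmic reticulum (ER) that fold, move or degrade secretory proteins were examined in SCC25 with and without aspirin. SCC25 is a long-established line of squamous carcinoma cells of the mouth. The set was chosen by function and holds 43 of the 34694 gene symbols listed in the expression table: 14 of folding, 9 of translocation, 11 of ER-associated degradation (ERAD), 6 stress sensors and transcription factors and 3 retrieval receptors. All 43 were found, MANF under its older name ARMET. Total RNA was hybridised to Illumina arrays from 3 samples exposed to 2.0 mM aspirin, which blocks the cyclooxygenases, and from 3 untreated samples, all taken at 72 h. Replicates 1 and 3 of both groups lay on one chip and replicate 2 of both on another. Whether replicates were separate cultures is not stated in the labels, and the p-values therefore cover the spread among these 6 samples, part of which may be technical.

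Proteins of the secretory pathway enter the ER through the SEC61 channel, are folded there by lectin chaperones and disulfide isomerases, and those that fail to fold are returned to the cytosol and destroyed, which is ERAD. When unfolded proteins accumulate, the sensors IRE1 (ERN1), PERK (EIF2AK3) and ATF6 start the unfolded protein response, which raises the transcription of chaperone and ERAD genes through XBP1, ATF4 and the cleaved form of ATF6.

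Between 14691 and 15170 genes were detected per array, and the small number of arrays limits the precision. All 11 listings of squamous epithelial markers were above background on every array. Their summed signal, as deposited and neither background-corrected nor normalized, was 56629 to 69527 in controls and 40945 to 51316 with aspirin. The median signal of all listed genes was also lower with aspirin, at 101.9, 121.0 and 107.2 against 112.5, 127.0 and 108.5. On normalized values 4 listings were lower and 1 higher past the threshold, beside 9.72% and 10.5% of all genes tested. Of the blood markers, PTPRC and CD3E were not above background on any array, and CD14 was lower with aspirin. Endothelial markers summed to 415.1 to 519.1 and 385.2 to 461.4, with none of 4 above background on every array. Of 6 fibroblast markers 4 were lower, beside 9.72% of all genes tested, with sums of 987.5 to 1721 in controls and 649 to 810 with aspirin. Only 3 of these 6 were above background on every array and 1 was on none. The background means on the aspirin arrays were 95.4, 110.5 and 99.7 per gene. All these sums are of signals as deposited, so they also carry array brightness and background, and all samples are of the SCC25 line. The part of these shifts in the ER genes was not tested, and fewer cells of a kind cannot be told apart from less RNA per cell.

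With aspirin, 4 ER genes rose and 1 fell in the unpaired fit. HERPUD1, which gathers the ERAD complex at the membrane, was 2.04-fold higher, the PERK gene EIF2AK3 1.75-fold, the ubiquitin ligase SYVN1 1.54-fold and the mannosidase-like lectin EDEM1 1.48-fold. The disulfide isomerase PDIA5 was 1.44-fold lower. Of 40 members that could be tested, 4 rose, 1 fell and 35 did not pass an adjusted p under 0.05 (limma, Benjamini-Hochberg over all 15128 genes tested). Of all genes tested, 20.2% passed, 10.5% as higher and 9.72% as lower, so the members, with 12.5% passing and 10% higher, changed no more often than that background. Their median difference was 0.17 on the log2 scale, against 0.02 over all genes tested.

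Arrays of the groups did not overlap for 12 members upward and 4 downward, 40% of those tested, beside 38.8% of all genes. ERO1LB is among the 12 and passed the filter only through its aspirin arrays. Of all genes 20.6% did not overlap upward and 18.2% downward. In all 3 pairs of equal replicate number, 20 of the 40 members tested were higher with aspirin and 10 lower. Of the 15128 genes tested, 4940 (32.7%) and 4366 (28.9%) were. The share higher was thus larger in the members than in all genes, a difference that was not tested. The replicate number was also used as a block, a pairing taken from these same data and not from the labels. With this block 8 members rose and 3 fell of the 40, beside 17.5% of all genes higher and 15.7% lower (33.2% in all). The members added were ARMET and CALR of folding, EDEM2 of ERAD and the factor CREB3 as higher, and SSR1 of translocation and VCP of ERAD as lower. Whether the roles differ in how often their genes changed was not tested. Median scaling of the arrays gave 1026 genes higher and 1522 lower, against 1589 and 1470, and 2 members higher, HERPUD1 and EIF2AK3, with a member median of 0.06 beside -0.03 over all genes tested. All log2 differences below are aspirin minus control, levels are log2 normalized signals in the order of replicates 1, 2 and 3, ± is the SE of a difference, and intervals are 95% intervals of limma with 3 arrays per group.

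**Figure D1:**
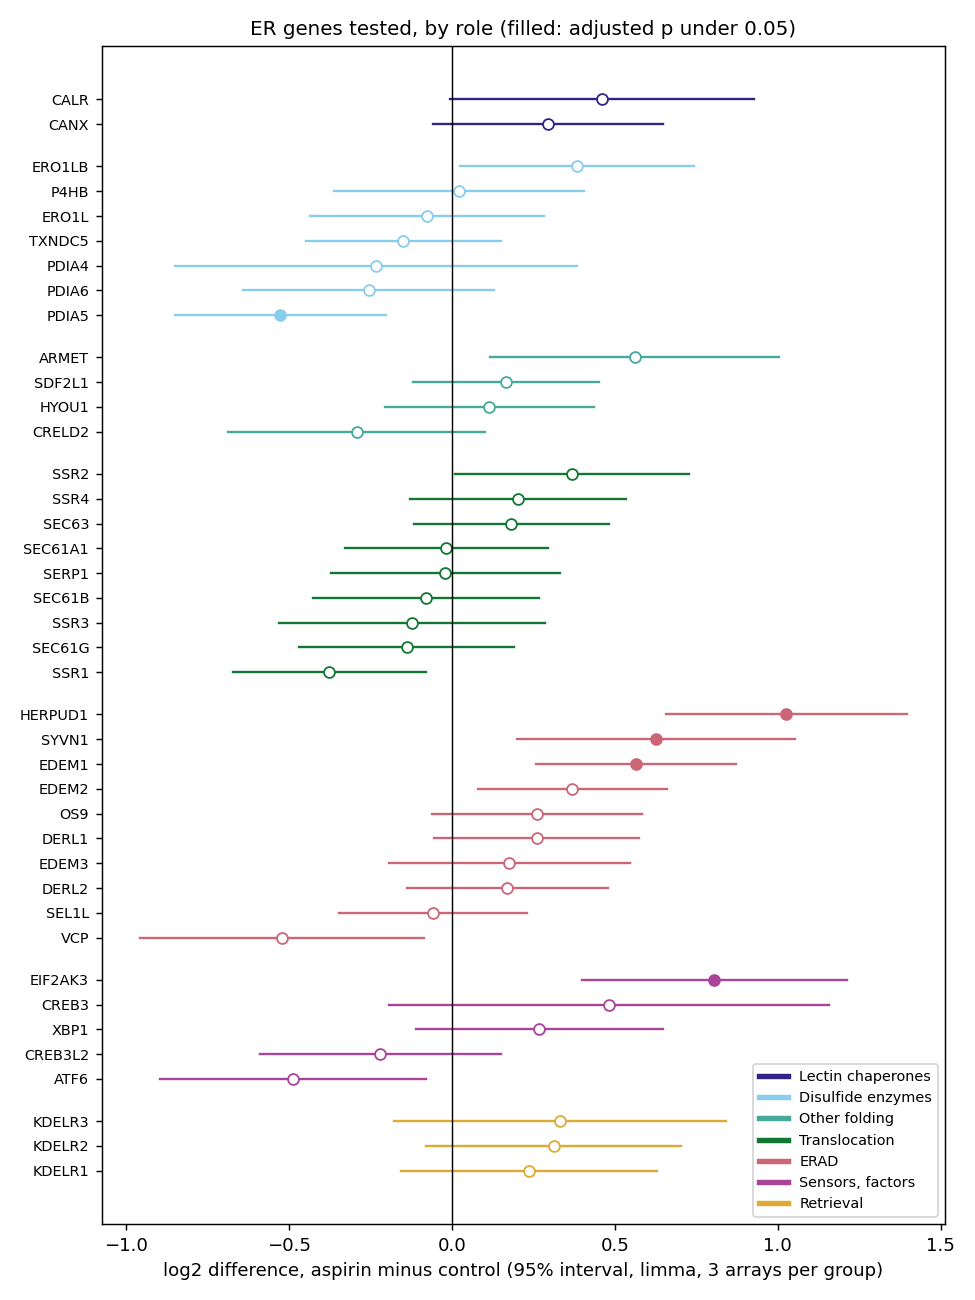
Log2 difference (aspirin minus control, horizontal axis) of each of the 40 members tested, grouped and coloured by role, with 95% intervals from limma over 3 arrays per group. Filled points are the 5 members with an adjusted p under 0.05, 3 of them in ERAD, and the intervals of 7 of the 9 translocation genes include 0. Of all genes tested 20.2% passed, and a difference between roles was not tested.

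**Figure D2:**
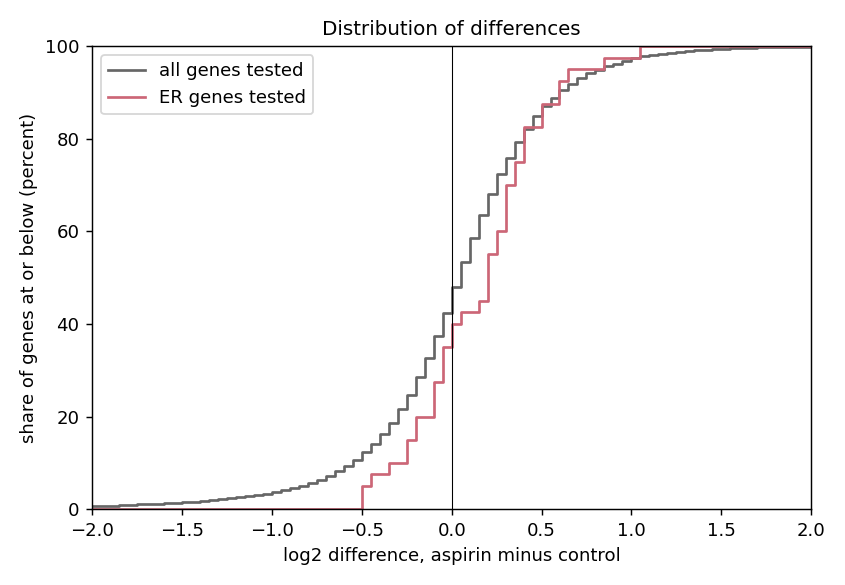
Share of genes (percent, vertical axis) with a log2 difference at or below the value on the horizontal axis, for the 15128 genes tested and the 40 members. The members' curve lies to the right of that of all genes near 0, with medians of 0.17 and 0.02 and a range of -0.53 to 1.03 over the members.

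Promoter sequence was read because ATF6 and XBP1 are known to act on ER genes through short elements before their starts. RefSeq promoters (GRCh38.p14) were at hand for 39 members, and in the 250 bases before each start 4 elements were searched on both strands: the ER stress element ERSE (CCAAT and CCACG with 9 free bases between them), its variant ERSE-II (ATTGG and CCACG with 1 free base between them), the XBP1 element UPRE, TGACGTGG, and the ATF4 element CARE, TGATGCAAT. ERSE was found in 7 members (CALR, CANX, CRELD2, ERO1LB, PDIA6, SERP1 and XBP1) and in 0.133% of 15843 protein-coding genes. ERSE-II was found in 3 (HERPUD1, HYOU1 and SDF2L1), beside 0.0884% of those genes, and UPRE in 6 (HYOU1, KDELR3, SSR3, SSR4, TXNDC5 and VCP), beside 0.865%. CARE as TGATGCAAT was found in 0 members and in 0.196% of those genes. Other forms of this element were not searched, so members may hold them. The HERPUD1 promoter printed below holds gttgcatca, which on the opposite strand differs from TGATGCAAT only in its last base. How often such near matches occur in other genes was not counted, and binding of ATF4 there was not tested. Per window, of 35116 windows of that length, 0.074%, 0.0513%, 0.612% and 0.216% held ERSE, ERSE-II, UPRE and CARE. The members were grouped with their role in the stress response known, so the count is a description and a match is not a shown binding site. PDIA3, DERL1, DERL3 and KDELR2 have no entry. The 6 promoters below carry the elements of the one member past the threshold that has a match and of 5 that did not pass, 5′ to 3′ on the strand of the gene, with the fixed bases of each match in capitals.
HERPUD1 (chr16:56931892-56932141, plus strand): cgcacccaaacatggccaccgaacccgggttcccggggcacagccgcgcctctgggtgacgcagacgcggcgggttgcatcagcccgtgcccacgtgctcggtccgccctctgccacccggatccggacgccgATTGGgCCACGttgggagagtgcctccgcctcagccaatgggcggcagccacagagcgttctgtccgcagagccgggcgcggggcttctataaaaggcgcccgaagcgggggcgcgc
XBP1 (chr22:28800570-28800819, minus strand): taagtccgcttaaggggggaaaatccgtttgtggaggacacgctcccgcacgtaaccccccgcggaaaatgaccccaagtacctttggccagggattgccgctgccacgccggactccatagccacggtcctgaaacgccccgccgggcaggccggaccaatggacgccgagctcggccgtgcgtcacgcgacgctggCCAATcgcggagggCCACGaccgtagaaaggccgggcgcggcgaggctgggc
CALR (chr19:12938359-12938608, plus strand): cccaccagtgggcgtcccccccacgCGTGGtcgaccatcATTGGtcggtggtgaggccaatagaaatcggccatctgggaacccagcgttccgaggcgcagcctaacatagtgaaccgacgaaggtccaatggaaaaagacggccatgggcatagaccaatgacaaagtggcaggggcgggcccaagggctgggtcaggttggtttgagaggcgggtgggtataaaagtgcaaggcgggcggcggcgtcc
HYOU1 (chr11:119057206-119057455, minus strand): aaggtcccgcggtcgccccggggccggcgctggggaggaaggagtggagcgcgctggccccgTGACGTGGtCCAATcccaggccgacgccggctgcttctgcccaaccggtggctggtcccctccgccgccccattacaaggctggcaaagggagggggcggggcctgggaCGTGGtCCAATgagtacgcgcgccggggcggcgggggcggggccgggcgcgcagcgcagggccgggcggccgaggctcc
CRELD2 (chr22:49918384-49918633, plus strand): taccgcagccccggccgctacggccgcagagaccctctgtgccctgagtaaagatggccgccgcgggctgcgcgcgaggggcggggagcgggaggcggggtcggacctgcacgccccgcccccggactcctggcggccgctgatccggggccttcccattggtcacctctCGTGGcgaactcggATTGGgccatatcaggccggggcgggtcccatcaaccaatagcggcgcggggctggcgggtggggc
SDF2L1 (chr22:21642052-21642301, plus strand): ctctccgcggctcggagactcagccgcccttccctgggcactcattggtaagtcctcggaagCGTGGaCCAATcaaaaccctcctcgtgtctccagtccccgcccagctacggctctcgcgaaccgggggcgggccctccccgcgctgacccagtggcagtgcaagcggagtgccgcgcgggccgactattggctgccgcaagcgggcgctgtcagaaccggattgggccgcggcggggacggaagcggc

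Of the 10 members with ERSE or ERSE-II in this window, only HERPUD1 was past the threshold in the unpaired comparison of aspirin with control. Of the members tested 12.5% passed, and of all genes 20.2%. With the replicate block CALR passed as well (adjusted p = 0.0388, limma). The ERSE-II match of HERPUD1 lay 117 to 107 bases before the start. The ERSE of XBP1, 52 to 34 bases before the start, and that of CRELD2, 80 to 62 bases before it, stood before genes whose differences of 0.27 and -0.29 did not pass and had opposite signs. HYOU1 holds ERSE-II at 2 places, at 185 and 79 bases, the farther overlapping its UPRE match, and had a difference of 0.12. EDEM1, SYVN1, EIF2AK3 and PDIA5 hold none of these letters in this window, which says nothing of the factors that act on them.

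**Figure D3:**
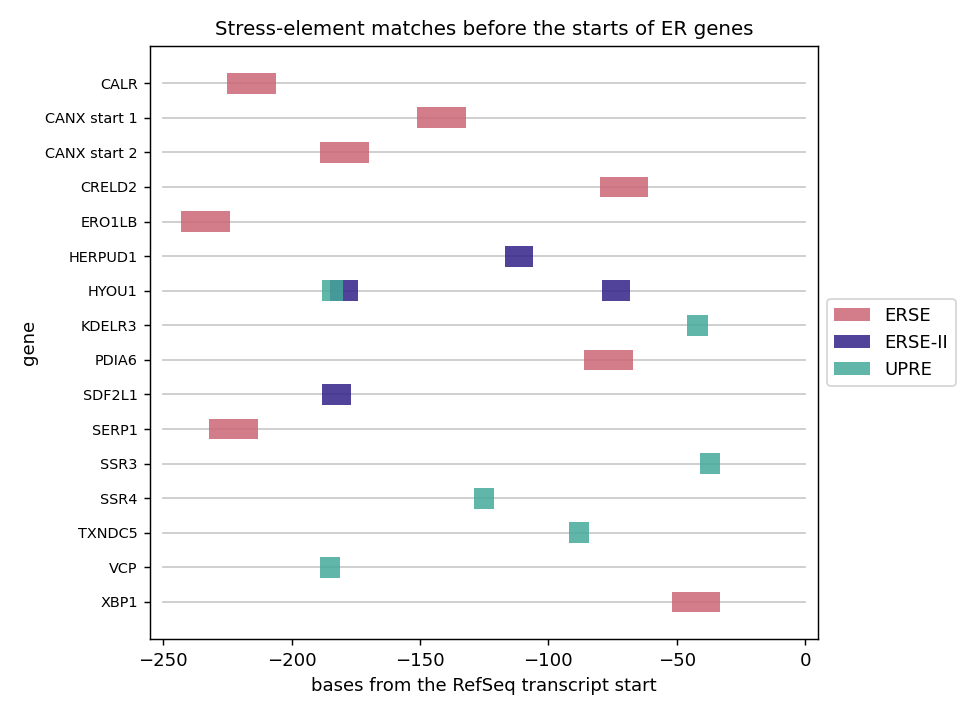
Matches to ERSE, ERSE-II and UPRE in the 250 bases before RefSeq transcript starts, one line per start with a match, with the distance from the start in bases on the horizontal axis and bars to scale. The matches of the 15 genes shown lie from 243 bases (ERO1LB) to 34 bases (SSR3 and XBP1) before a start, and on HYOU1 a UPRE match overlaps one of its 2 ERSE-II matches.

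Among the genes of ERAD, 3 of 10 tested rose and 0 fell (1 lower at an unadjusted p under 0.05 by limma). Their median difference was 0.26, with a range of -0.52 to 1.03. Beside this count and those of the other roles below, 10.5% of all genes tested were higher and 9.72% lower. HERPUD1, an integral ER membrane protein that recruits the ubiquitin ligase complex and is among the most inducible genes of the unfolded protein response, had levels of 9.46, 9.95 and 9.89 in controls and of 10.82, 10.74 and 10.83 with aspirin. Every treated array was above every control, control 1 lay lowest, and the 3 treated arrays lay closer together than the controls. The difference was 1.03 ± 0.16 (interval 0.66 to 1.40, adjusted p = 0.00401). Chip 1 alone gave 1.15 and the pair on chip 2 gave 0.79. It failed to pass without both replicate 3 arrays (1.07, adjusted p = 0.0718) and passed in the other 20 alternatives.

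SYVN1, the E3 ligase HRD1 at the centre of the ERAD channel, had levels of 8.93, 8.42 and 8.53 in controls and 9.52, 9.06 and 9.17 with aspirin. Replicate 1 was highest in both groups, and the 3 pairs differed by nearly the same amount, 0.59, 0.64 and 0.64. The difference of 0.63 ± 0.19 (interval 0.20 to 1.05) passed narrowly (adjusted p = 0.0466; 0.00539 with the replicate block). It did not pass with the all-gene background (adjusted p = 0.103), the deposited matrix with names realigned (0.0534), median scaling (0.0612) or no filter (0.0875). The call was also lost without control replicate 2 (0.52, adjusted p = 0.136), control replicate 3 (0.58, 0.138) or aspirin replicate 1 (0.49, 0.118), 2 (0.72, 0.0616) or 3 (0.67, 0.0994).

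EDEM1, which recognises trimmed mannose chains on misfolded glycoproteins, had levels of 7.79, 8.04 and 7.95 in controls and 8.40, 8.56 and 8.52 with aspirin. The groups were well apart, with a smallest pair difference of 0.52 and a largest of 0.60. The difference was 0.56 ± 0.13 (interval 0.26 to 0.87, adjusted p = 0.0208), 0.59 on chip 1 and 0.52 in the chip 2 pair. The call was lost without control replicate 1 (adjusted p = 0.0507), control replicate 3 (0.0647), aspirin replicate 2 (0.0688) or aspirin replicate 3 (0.0711), and with median scaling (0.47, adjusted p = 0.112). With the all-gene background, which estimates the background from all listed genes, the difference was 0.33. Without both replicate 2 arrays (chip 1 alone) or both replicate 3 arrays, EDEM1, SYVN1, EIF2AK3 and PDIA5 did not pass.

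EDEM2, a mannosidase of the same family, was at 8.41, 8.29 and 8.44 in controls and 8.71, 8.72 and 8.81 with aspirin. Its groups did not overlap either, at a difference of 0.37 ± 0.13 (adjusted p = 0.0728), which passed with the replicate block (adjusted p = 0.0415) and with 4 other settings, the all-gene background among them (adjusted p = 0.0157). EDEM3 had a difference of 0.18 with overlapping groups.

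VCP, the ATPase that pulls ubiquitylated proteins out of the ER membrane, had levels of 8.83, 9.20 and 8.99 in controls and 8.53, 8.79 and 8.14 with aspirin. All treated arrays were below all controls, aspirin 3 by most. The difference of -0.52 ± 0.19 (interval -0.96 to -0.09) did not pass (adjusted p = 0.0889), but did with the replicate block (adjusted p = 0.0267) and with the chip as a block (adjusted p = 0.0462). VCP was thus the one ERAD member, besides SEL1L, with a negative difference.

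SEL1L, the partner that stabilises SYVN1, had a difference of -0.06 (interval -0.35 to 0.23) and lay close to background, with levels from 5.06 to 5.24. OS9, a lectin that hands substrates to SEL1L, differed by 0.26 and the channel proteins DERL1 and DERL2 by 0.26 and 0.17, none past the threshold. The treated arrays of OS9 and DERL1 were all above their controls and those of DERL2 were not. DERL3 was not tested. It was above background on 1 aspirin array and on 0 controls, with levels of 4.34 to 4.72.

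**Figure D4:**
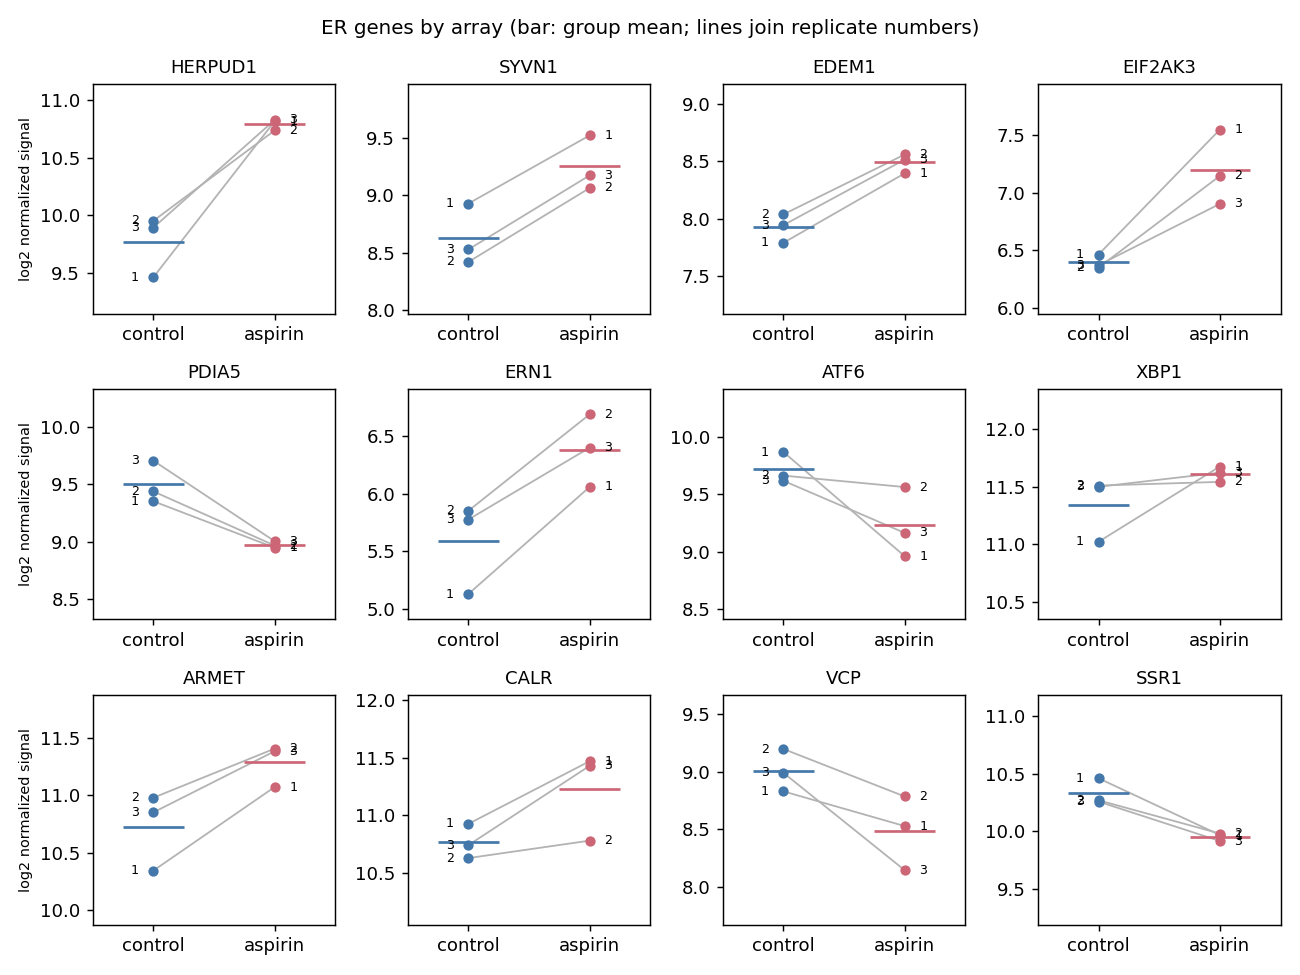
Log2 normalized signal (vertical axis, each panel spanning 2 log2 units) of 12 members on the 3 control and 3 aspirin arrays. Lines join arrays of equal replicate number, numerals give that number and horizontal bars the group means. HERPUD1, SYVN1, EDEM1, EIF2AK3, ERN1, XBP1 and ARMET are higher on every treated array than on any control, PDIA5, ATF6, VCP and SSR1 are lower on every treated array, and CALR overlaps through replicate 2.

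Of the sensors and transcription factors 1 of 5 tested rose and 0 fell (1 lower at an unadjusted p under 0.05 by limma). EIF2AK3 encodes PERK, the kinase that phosphorylates the initiation factor eIF2alpha under ER stress. Its levels were 6.46, 6.35 and 6.37 in controls and 7.55, 7.15 and 6.90 with aspirin. The controls lay close together, while the treated arrays were spread more widely, all above the controls. The difference was 0.81 ± 0.18 (interval 0.40 to 1.21, adjusted p = 0.0156), 0.81 on chip 1 and 0.80 in the chip 2 pair. The call was lost without control replicate 3 (0.79, adjusted p = 0.0554). With the all-gene background the difference was 0.15 and did not pass (adjusted p = 0.0911), and with no background correction it was 0.45.

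ATF6, the membrane-bound factor that is cut in the Golgi to reach the nucleus, had levels of 9.87, 9.66 and 9.62 in controls and 8.96, 9.56 and 9.16 with aspirin. All treated arrays lay below all controls, but replicate 2 differed by only -0.10 against -0.91 and -0.45 in the other pairs. The difference of -0.49 ± 0.18 (interval -0.90 to -0.08) did not pass (adjusted p = 0.0905). It passed without aspirin replicate 2 (-0.65, adjusted p = 0.0418).

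ERN1, the kinase and RNase IRE1 that splices XBP1 mRNA, missed the filter on detection scores on all 6 arrays, although its signal was above background on 2 of 3 control and 3 of 3 aspirin arrays. Levels were 5.13, 5.85 and 5.78 in controls and 6.06, 6.69 and 6.40 with aspirin. Each treated array was above every control, by 0.93, 0.84 and 0.63 within pairs. Fitted with no filter, the difference was 0.80 ± 0.24 (adjusted p = 0.108), and a filter on signal in place of score gave an adjusted p of 0.0417.

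XBP1, whose spliced mRNA encodes the factor that drives ERAD and chaperone genes, had levels of 11.02, 11.51 and 11.50 in controls and 11.67, 11.54 and 11.62 with aspirin. Control 1 stood below the other 5 arrays, the groups did not overlap but nearly touched, and the pair differences were 0.65, 0.03 and 0.12. The difference of 0.27 ± 0.17 did not pass (interval -0.11 to 0.65, adjusted p = 0.294). The table has 1 value for the gene and does not separate its spliced and unspliced forms. CREB3 and CREB3L2, membrane-bound factors related to ATF6 in their activation, had differences of 0.48 and -0.22 (adjusted p = 0.291 and 0.389). Replicate 1 of CREB3 was highest in both groups, at 5.88 and 6.53, and with the replicate block CREB3 passed (adjusted p = 0.0211). Its signals lay near background, and its difference ranged from 0.042 to 0.70 over the other settings.

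Folding genes were divided, with 0 of 13 tested higher and 1 lower (2 higher and 1 lower at an unadjusted p under 0.05 by limma) and a median difference of 0.02. PDIA5, an isomerase of the thioredoxin fold, was at 9.35, 9.44 and 9.70 in controls and at 8.95, 8.97 and 9.00 with aspirin. The treated arrays lay together, below all controls. The difference was -0.53 ± 0.14 (interval -0.85 to -0.20, adjusted p = 0.0327), -0.55 on chip 1 and -0.47 in the chip 2 pair. The call was lost without control replicate 2 (adjusted p = 0.0692), control replicate 3 (0.117) or any 1 aspirin array (0.0717 to 0.0868).

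The other disulfide enzymes did not pass. P4HB, the founding isomerase and a subunit of collagen prolyl hydroxylase, had levels of 11.77, 11.58 and 12.09 in controls and 11.91, 11.68 and 11.92 with aspirin. The groups overlapped fully, and the difference of 0.02 ± 0.17 had an interval of -0.36 to 0.41. The differences of PDIA4, PDIA6, TXNDC5 and the oxidase ERO1L, which reoxidises the isomerases, lay between -0.25 and -0.08, and PDIA4 had the widest interval of these, -0.85 to 0.39. PDIA4 differed by 0.43 in pair 1 and by -0.43 and -0.70 in the others. ERO1LB, a second oxidase, was not above background on any control array and was above it on 3 aspirin arrays, with measured means of 4.60 and 4.99. It could be tested only because of its aspirin arrays, so the filter itself favoured a higher value there, and its difference did not pass. PDIA3, the isomerase that works with calreticulin and calnexin, was listed but not above background on any array, at 4.29 to 4.63, and was not tested.

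CALR, the soluble lectin chaperone calreticulin, had levels of 10.93, 10.63 and 10.74 in controls and 11.47, 10.78 and 11.43 with aspirin. Replicates 1 and 3 were higher with aspirin by 0.54 and 0.69 and replicate 2 by 0.15, so the groups overlapped. The difference of 0.46 ± 0.20 did not pass (adjusted p = 0.149), but did with the replicate block (adjusted p = 0.0388) and without aspirin replicate 2 (0.69, adjusted p = 0.0333). CANX, its membrane-bound relative calnexin, had levels of 6.71, 7.11 and 6.91 in controls and 7.35, 7.21 and 7.07 with aspirin. These overlapped, and the difference was 0.30 ± 0.15 (interval -0.06 to 0.65, adjusted p = 0.218).

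ARMET, now MANF, a secreted ER stress protein with a trophic role, was at 10.34, 10.98 and 10.85 in controls and at 11.07, 11.40 and 11.38 with aspirin. All treated arrays were above all controls, and replicate 1 was lowest in both groups. The difference of 0.56 ± 0.19 (interval 0.12 to 1.01) had an adjusted p of 0.0750, of 0.0113 with the replicate block and of 0.0456 with a trended and robust variance prior. The chaperone HYOU1, the J-protein partner SDF2L1 and the stress protein CRELD2 had differences of 0.12, 0.17 and -0.29 and did not pass. CRELD2 was lower in all 3 pairs and SDF2L1 higher in all 3, each by at most 0.40 log2 units.

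Of 9 translocation genes tested, 0 rose and 0 fell (1 in each direction at an unadjusted p under 0.05 by limma), and their median difference was -0.02. SEC61A1, the channel subunit itself, had levels of 10.70, 10.90 and 10.72 in controls and 10.85, 10.79 and 10.63 with aspirin. The groups overlapped, with a difference of -0.02 ± 0.14 and an interval of -0.33 to 0.29. The small channel subunits SEC61B and SEC61G differed by -0.08 and -0.14, the channel partner SEC63 by 0.18 and SERP1, which guards nascent chains at the channel, by -0.02.

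The 4 subunits of the translocon-associated protein complex, which helps some signal sequences into the channel, did not move together. SSR1 was at 10.46, 10.27 and 10.26 in controls and at 9.97, 9.98 and 9.91 with aspirin. Its groups did not overlap, and the difference of -0.38 ± 0.13 had an adjusted p of 0.0747, passing with the replicate block (adjusted p = 0.0427) and in 5 other settings. SSR2 was at 8.75, 9.09 and 8.62 in controls and at 9.09, 9.22 and 9.25 with aspirin, which did not overlap in the other direction (0.37 ± 0.16, adjusted p = 0.138). SSR3 and SSR4 had differences of -0.12 and 0.20.

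The KDEL receptors, which return escaped ER proteins from the Golgi, gave 0 calls of 3 (0 also at an unadjusted p under 0.05 by limma). Their differences were alike in size, at 0.24, 0.31 and 0.33 for KDELR1, KDELR2 and KDELR3, and each was positive in all 3 pairs. KDELR3 varied most between controls, from 8.53 on replicate 1 to 9.26 on replicate 2, and its interval was -0.18 to 0.84.

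**Figure D5:**
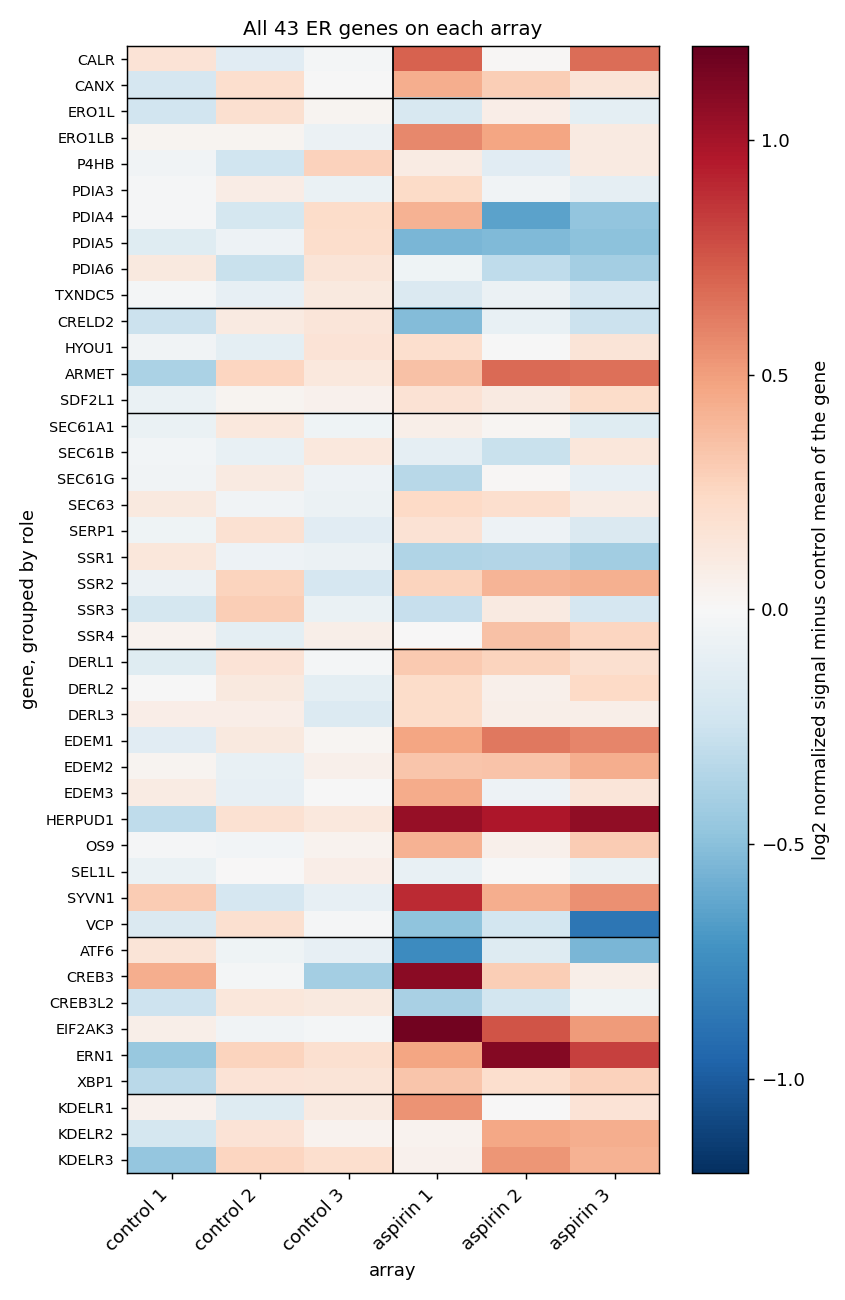
Log2 normalized signal of all 43 members on each of the 6 arrays minus the control mean of the gene, grouped by role with black lines between roles, blue below and red above the control mean. HERPUD1 is red on all 3 aspirin arrays, EIF2AK3 most on aspirin 1, and control 1 is below the other controls for ERN1, XBP1, ARMET and KDELR3.

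Other genes of the same roles were taken from a list of 130, of which 128 were found and 115 listings were tested. Of these 18 rose, 8 fell and 89 did not pass, which is 22.6% called, beside 20.2% of all genes. HSPA5, the chaperone BiP that binds and restrains the sensors, had levels of 8.53, 9.04 and 8.88 in controls and 9.50, 9.56 and 9.32 with aspirin. It rose by 0.64 ± 0.17 (adjusted p = 0.0282), with no overlap between groups. Its partner HSP90B1, or GRP94, was at 11.94, 12.49 and 12.38 in controls and at 12.23, 12.45 and 12.19 with aspirin, a difference of 0.02 (interval -0.38 to 0.42, adjusted p = 0.953). The J-protein DNAJB9, a repressor of IRE1, rose by 0.90 ± 0.16 (adjusted p = 0.0066) and the collagen chaperone FKBP10 by 1.04 ± 0.17 (adjusted p = 0.00534), while its relative FKBP9 fell (-0.68 ± 0.13, adjusted p = 0.00817). The aspirin signals of FKBP9, at 105.6, 123.9 and 113.1, lay near the background means of those arrays, 95.4, 110.5 and 99.7. In all, 4 of 30 other folding genes rose and 3 fell.

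Of 14 listings of other sensor, factor and stress-response genes tested, 4 rose and 0 fell (0 also at an unadjusted p under 0.05 by limma). Of all genes tested, 10.5% were higher and 9.72% lower. ATF6B (also listed as CREBL1), MBTPS1, MBTPS2 and CREB3L4 were among those that did not pass. ATF4, the factor translated when eIF2alpha is phosphorylated, had levels of 10.79, 11.12 and 10.82 in controls and 11.59, 11.37 and 11.60 with aspirin (0.61 ± 0.15, adjusted p = 0.0239). DDIT3, the stress factor CHOP, had levels of 7.60, 7.82 and 7.96 in controls and 8.96, 9.48 and 9.49 with aspirin, a 2.87-fold rise (adjusted p = 0.00137). All treated arrays of both genes were above all controls. TRIB3, a pseudokinase and CHOP target, rose by 1.80 ± 0.19 (adjusted p = 0.00078), and PPP1R15A, the phosphatase subunit that reverses eIF2alpha phosphorylation, by 0.92 ± 0.21 (adjusted p = 0.0165).

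Of 23 other ERAD genes 5 rose and 2 fell. Those with the smallest p-values were SEL1L3 (-1.13 ± 0.13, adjusted p = 0.00131), the VCP cofactor UBXN6 (0.91 ± 0.15, adjusted p = 0.00518) and NGLY1, which strips N-glycans from retrotranslocated proteins (0.77 ± 0.14, adjusted p = 0.00689). SEL1L3 was listed with ERAD, but a role of it there was not examined. In translocation 2 of 30 rose and 2 fell. CAMLG, a receptor for tail-anchored proteins, rose by 1.27 ± 0.14 (adjusted p = 0.00107), and RPN2, a subunit of the oligosaccharyltransferase (-0.97 ± 0.15, adjusted p = 0.00377), and SRP9, of the signal recognition particle (-0.71 ± 0.13, adjusted p = 0.00682), fell. Of 18 genes of retrieval and export 3 rose and 1 fell, with the cargo receptor subunit MCFD2 at 0.72 ± 0.14 (adjusted p = 0.0104), the COPII coat protein SEC31A at 0.52 ± 0.13 (adjusted p = 0.0255) and the lectin LMAN2 at -0.62 ± 0.17 (adjusted p = 0.0311).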

How the data were processed

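Illumina arrays of total RNA from 3 untreated and 3 aspirin-treated SCC25 samples were analysed. Per the file headers, the authors deposited a signal intensity per gene and array, not normalized, and the submitters' processing notes name GenomeStudio 1.9.0. Of build and annotation, no label or header speaks. The deposited detection columns are headed p-values but their mean is 0.994 for the 1000 genes of highest signal and 0.17 for the 1000 of lowest, so they were read as a detection score of 1 minus p. The deposited intensity matrix equals the signal minus 1 constant per array, with 19344 genes holding the value of a following gene (within 0.3 intensity units), and served only as an alternative after realignment. The names of the signal table were taken as right. This was not tested, and the realigned matrix cannot check it because it was given the same names.

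Background was removed with limma's normexp model (mean and SD from the 27647 genes with scores in steps of 1 in 770), 16 was added, and the values were quantile normalized and log2 transformed (limma 3.58.1, R 4.3.3), omitting 1 gene that had a 0 signal. Genes with a score over 0.95 on at least 3 arrays were tested by limma's lmFit and eBayes without covariates, adjusted by Benjamini-Hochberg. "Above background" means a score over 0.95 or a signal over the background mean plus 3 SD. Arrays of equal replicate number deviated together (r = 0.508, 0.516 and 0.320), so the numbers were taken as pairs, from the data and not the labels, and used as a block beside the unpaired fit. Members, lists and settings were chosen with earlier results of these data known. Named with values on every array are members past the threshold, those above background but untested, CALR, CANX, P4HB, SEC61A1, VCP, XBP1, ATF6, ERN1 and EIF2AK3, and of other ER genes HSPA5, HSP90B1, ATF4 and DDIT3. Up to 3 further called genes per role, those of smallest p, have a difference and SE; ARMET, SSR1, SSR2, EDEM2, PDIA4, CREB3 and KDELR3 were detailed after their values were seen. Other settings were background, offset, normalization, filter, prior, blocks and left-out arrays. One marker result is not reported here.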

Additional observations from a re-analysis of the deposited data

How the results depend on the processing

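Of 21 distinct other settings (chip 1 alone is the same 4 arrays as leaving out both replicate 2 arrays), HERPUD1 passed in 20, EIF2AK3 in 17, EDEM1 and PDIA5 in 14 each and SYVN1 in 10, all with the sign kept. Blocking on replicate number gave 5020 genes in all, with 8 members higher and 3 lower (CALR, CREB3, EDEM2, MANF, SSR1 and VCP added) and 14 other ER genes lower, and changed the call of no other member. On chip 1 alone 859 genes passed, with 1 member higher, 0 lower (7 and 3 at an unadjusted p under 0.05 by limma), and 6 and 2 other ER genes. Members lower were 2 with the all-gene background, no background correction, an offset of 50, cyclic loess, no filter or the chip as a block. Median scaling gave 2 members higher and 10 other ER genes higher. The member median was 0.042 with the all-gene background and 0.058 with median scaling, beside 0.0020 and -0.033 over all genes tested. With arrays left out singly or as pairs, the genes passing ranged from 440 to 3149, members higher from 0 to 4 and lower from 0 to 1, other ER genes higher from 4 to 16 and lower from 1 to 6, and the member median from 0.10 to 0.19. Without both replicate 3 arrays no member passed by limma (4 higher and 0 lower at an unadjusted p under 0.05), and without both replicate 1 arrays 4 rose and 1 fell. Uncalled members near 0 changed sign. P4HB was at -0.13 with median scaling, -0.028 with cyclic loess and -0.015 on chip 1, SEC61A1 at 0.030 and SERP1 at 0.092 on chip 1. With arrays left out, P4HB ranged from -0.095 to 0.16, SEC61A1 from -0.0996 to 0.0486, SERP1 from -0.14 to 0.092, ERO1L from -0.190 to 0.0209, SSR3 from -0.24 to 0.025, SEC61B from -0.188 to 0.0153 and PDIA4 from -0.56 to 0.0012. The causes were not tested. Signals near background limit ERN1, CREB3, EDEM3, SEL1L, ERO1LB, DERL3 and PDIA3.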

Other observations

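The listing PDIA3P, a pseudogene of PDIA3 picked out only once its values were known, was above background on all 6 arrays, at 9.24, 9.33 and 9.42 in controls and 9.22, 8.92 and 8.95 with aspirin, while PDIA3 itself was not above background on any. Its difference was -0.30 ± 0.14 (adjusted p = 0.179, limma), and since gene and pseudogene share sequence, the listing to which PDIA3 mRNA contributes is uncertain.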
